A study of Mus musculus with 6 samples.

Results

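The genes described here encode the MCM helicase of DNA replication and the proteins that load, activate or restrain it. They are Mcm2, Mcm3, Mcm4, Mcm5, Mcm6 and Mcm7 for the helicase ring, Mcm10 for its activation, Cdc6 and Cdt1 for its loading, and Gmnn for geminin, the inhibitor of Cdt1. They were chosen by symbol, and all 10 were found among 24062 genes of the deposited expression table. The RNA was that of sorted hematopoietic stem cells (HSC), from which all blood cells descend. There were 2 genotypes with 3 libraries each, and 3 to 5 mice were pooled for every library. Control mice were Nr4a1 fl/fl; Nr4a3-/-, so they carried floxed Nr4a1 and lacked Nr4a3. CDKO mice had the same alleles plus Rosa26-ERt2, by background a tamoxifen-activated Cre recombinase expressed from the broadly active Rosa26 locus. All mice of both groups received tamoxifen at 120 mg per kg in 4 daily injections, and HSC were sorted on day 5. The labels do not give the animals' age or strain. The comparison asks how transcripts of the replication helicase differed when deletion of Nr4a1 was induced in cells already without Nr4a3. Cre came in the same libraries as the deletion, so the effects of these cannot be told apart.

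A cell licenses its replication origins in G1 phase, before DNA synthesis begins. The origin recognition complex (ORC) binds DNA, Cdc6 joins it, and Cdt1 brings in MCM2-7, a ring of related ATPases that is closed around the double helix as an inactive double ring. In S phase the ring joins Cdc45 and the GINS complex to become the moving helicase, with Mcm10 acting at that step, while geminin binds Cdt1 so that no origin is licensed again. Most HSC rest outside the cell cycle, and resting cells are known to hold few licensed origins. Genes of this group are textbook targets of the E2F transcription factors.

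Levels are given as reads per 1000000 counted reads of a library (CPM), and differences as log2(CPM + 1), CDKO minus control, from a limma fit over 13734 genes with a Benjamini-Hochberg adjusted p threshold of 0.05. The libraries held 32863805 to 42772261 counted reads, and a member had between 1119 and 42352 reads in a library. With each read taken as independent, the relative counting error of a value was at most 2.99%. The RNA was amplified, so the true sampling error may be larger. No batch is named in the labels, so genotype and any difference in handling shared within a group cannot be told apart. Nr4a1 averaged 13.8 CPM in control and fell to 9.13 CPM, or 0.661-fold (limma adjusted p = 0.00204), and Nr4a3 had 0 reads in all 6 libraries. Loss of the floxed part of Nr4a1 was not examined and cannot be read from a count over the whole gene. All 10 HSC markers examined were present, with no library below 34.2 CPM for any of them, but their levels differed between the groups: 5 were higher in CDKO pools and 5 lower, from 1.75-fold for Ly6a to 0.599-fold for Fgd5. The summed level of 13 neutrophil markers was 1145 to 1411 CPM in the control group against 243 to 409.9 CPM in the CDKO group, and 11 of the 13 fell. The largest part of the CDKO sum was Prtn3, which averaged 204 and 193 CPM and, like Elane, did not pass. The 11 fell by unlike amounts, such as Ngp from 240 to 6.99 CPM, S100a9 from 129 to 4.50 CPM and Ctsg from 7.87 to 4.09 CPM. CDKO replicates 1, 2 and 3 held Mpo at 33.0, 32.1 and 90.6 CPM, and Elane at 8.76, 8.56 and 30.7 CPM. The sum of 9 erythroid genes was 202 to 224 CPM against 43.1 to 49.1 CPM, with 5 lower, while the hemoglobin genes Hba-a1 and Hbb-bt were listed at 0 in every library and Hbb-bs in all but CDKO replicate 3. The sum of 6 basophil and mast cell genes was 689 to 729 CPM against 455 to 479 CPM, with 5 lower. Most of that sum was Gata2, which averaged 475 and 459 CPM and did not pass. The other 5 fell to CDKO averages between 0.0321 CPM (Fcer1a) and 3.94 CPM (Cpa3), among them Prss34 from 163 to 0.179 CPM. The sum of 6 megakaryocyte genes was 401 to 426 CPM against 547 to 557 CPM, with 5 higher. B cell genes summed to 44.7 to 53.7 CPM in control and 56.8 to 60.1 CPM in CDKO pools (1 of 4 higher, 1 lower, Ms4a1 at 0), and of 4 T cell genes Cd3e, Cd3g and Cd8a had no read. These lists moved between the same groups as the members below, and their part in the members' results was not tested. In such bulk samples a change in the number of cells that hold a transcript and a change in RNA per cell cannot be told apart.

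All 6 genes of the MCM2-7 ring rose in CDKO HSC, by 1.08-fold to 1.37-fold, while Gmnn and Cdc6 fell and Cdt1 rose. Of the 10 members 7 were higher and 2 lower, with 1 that did not pass. Among all genes tested, 31.1% were higher and 35.2% were lower at the same threshold, 66.2% in all. The 3 CDKO values lay clear of the 3 control values for 9 of the 10 members, against 70.6% of all genes tested. They were above for 7 members, against 33.4% of all genes, and below for 2, against 37.2%. With so many genes called, a single call says little about these members. The median difference was 0.30 over the ring and 0.28 over the 10 members, beside -0.02 over all genes tested. In the authors' deposited table, adjusted p-values under 0.05 were listed for 9 of the 10 members, and all 10 had the same direction as here.

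**Figure D1:**
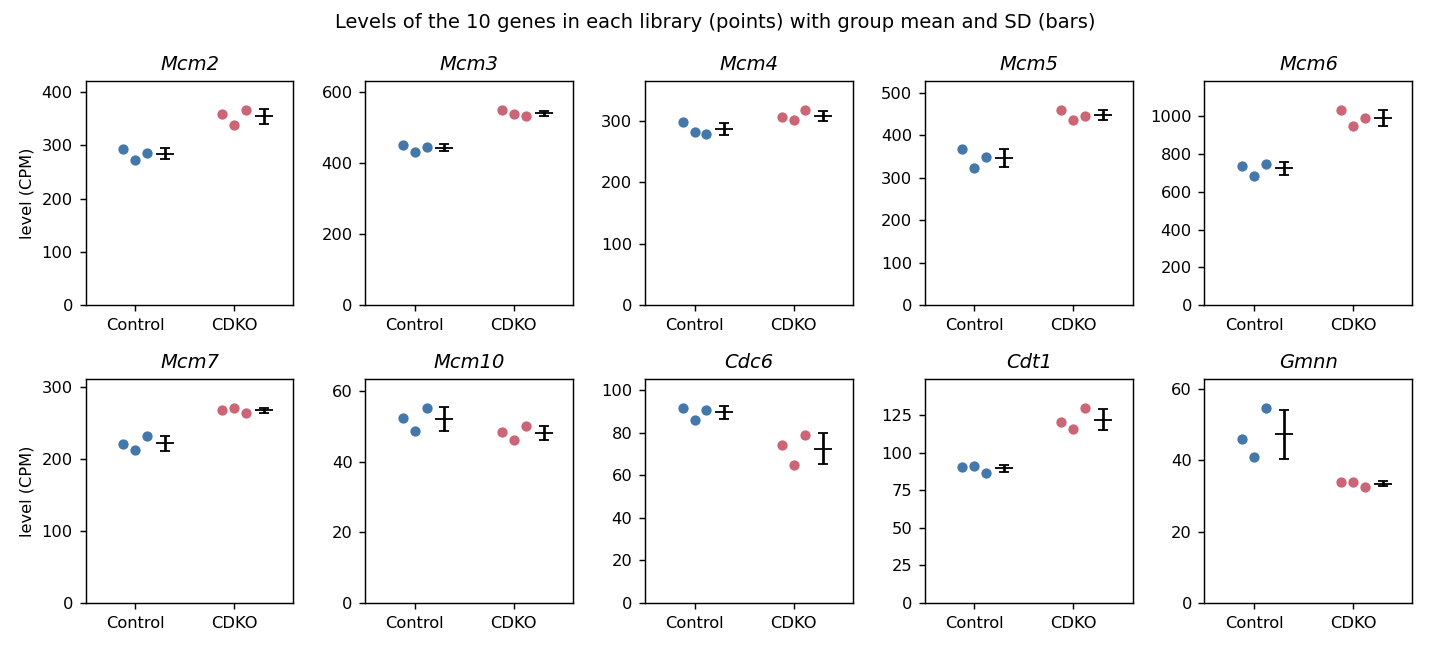
Level of each member in CPM (vertical axes from 0, scaled per gene) in the 3 control and 3 CDKO libraries (points), with group mean and SD (bars). The groups overlap for Mcm10 alone.

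Mcm6 had the largest difference of the ring. It encodes a subunit that sits beside Mcm2 in the ring, and lies at mm10 chromosome 1, 128331590 to 128359664, on the minus strand. Its level was 738, 682 and 749 CPM in the control pools and 1031, 949 and 990.2 CPM in the CDKO pools. Every CDKO pool was above every control pool. The log2 difference was 0.45 (SE 0.05, n = 3 per group, limma adjusted p = 1.00e-05), a 1.37-fold rise, and 16.6% of all genes tested had a larger positive difference.

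Mcm5 (chromosome 8, 75109569 to 75128439, plus strand) and Mcm2 (chromosome 6, 88883474 to 88898780, minus strand) encode the subunits between which the ring opens to take in DNA. Mcm5 stood at 367, 324 and 348 CPM in control and at 458, 436 and 446 CPM in CDKO pools. It rose by 0.37 on the log2 scale (SE 0.05, limma adjusted p = 5.22e-05). Control replicate 2 was its lowest library, and the groups did not overlap. Mcm2 stood at 293, 273 and 286 CPM in control and at 358, 339 and 366 CPM in CDKO pools. It rose by 0.32 (SE 0.04, limma adjusted p = 8.48e-05), also with no overlap.

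Mcm3 (chromosome 1, 20802968 to 20820312, minus strand), the partner of Mcm5 in the ring, also rose. Its level was 451, 432 and 446 CPM in control and 548, 538 and 533 CPM in CDKO pools. The rise was 0.29 on the log2 scale (SE 0.04, limma adjusted p = 5.11e-05). Mcm7 (chromosome 5, 138164583 to 138172422, minus strand) belongs with Mcm4 and Mcm6 to the subunits that carry the helicase's catalytic core. Its level was 221, 212 and 233 CPM in control and 268, 271 and 264 CPM in CDKO pools, a rise of 0.27 on the log2 scale (SE 0.04, limma adjusted p = 0.000254). For both genes the lowest CDKO pool was above the highest control pool. The Mcm7 gene overlaps the annotated spans of Ap4m1 and Cops6, which were higher as well (limma adjusted p = 0.0493 and 0.0218). The strand setting of the counting is not given in the sources used here, so reads from overlapping exons may not be assigned with certainty. Introns of Mcm7 also hold the miRNA genes Mir106b, Mir93 and Mir25. Mir106b had no read. Mir25 averaged 0.460 CPM in control and 0.388 CPM in CDKO libraries without passing (limma adjusted p = 0.674), in a gene count that does not measure the mature miRNA.

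Mcm4 had the smallest difference of the ring. The gene (chromosome 16, 15623897 to 15637400, minus strand) encodes a subunit whose long N-terminal tail is phosphorylated when origins fire. Its level was 298, 282 and 279 CPM in control and 306, 302 and 317 CPM in CDKO pools. The groups did not overlap, but control replicate 1 and CDKO replicate 2 differed by little. The log2 difference was 0.11 (SE 0.04, 95% interval 0.01 to 0.20, limma adjusted p = 0.0439), and 39.0% of all genes tested had a larger positive difference. It failed the threshold when control replicate 2 was left out (limma adjusted p = 0.120), or control replicate 3 (0.143), or CDKO replicate 1 (0.0631), 2 (0.0505) or 3 (0.129). It also failed with no filter (0.0533), quantile normalization (0.0507) and the GC and length correction (0.0602), so in 8 alternatives. Over all 17 its adjusted p ran from 0.0130 to 0.143 and its difference from 0.09 to 0.13.

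The start of Mcm4 faces that of Prkdc, the catalytic subunit of the DNA-dependent protein kinase of double-strand break repair, at a distance of 466 bases on the other strand. The genes of this head-to-head pair went opposite ways. Prkdc stood at 56.7, 58.4 and 53.6 CPM in control and 16.7, 24.4 and 21.7 CPM in CDKO pools. Its log2 difference was -1.40 (SE 0.12, limma adjusted p = 2.25e-06).

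**Figure D2:**
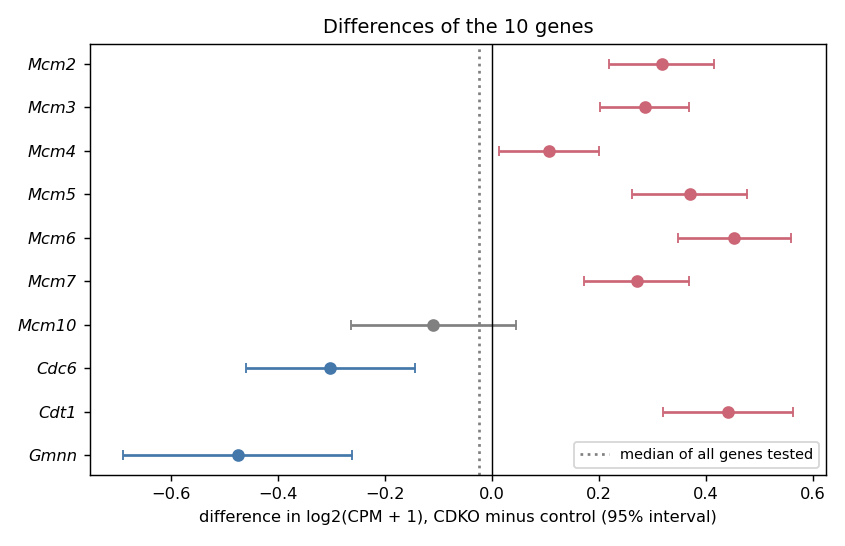
Difference in log2(CPM + 1), CDKO minus control (horizontal axis), with its 95% interval from limma for each member; red marks higher, blue lower and grey not passed. The ring genes and Cdt1 lie to the right of 0, from 0.11 for Mcm4 to 0.45 for Mcm6, and Gmnn lies farthest to the left at -0.48.

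The differences of the 6 subunits ran from 0.11 to 0.45 on the log2(CPM + 1) scale, and whether they differ from each other was not tested. Within a working ring each subunit is present once, so the mix of their transcripts was also expressed as reads per kilobase of exon. The length used covers every annotated exon of a gene, which can be longer than the transcript expressed in these cells. The annotation used for the counting is not given either. The order of genes below depends on these lengths, whereas the comparison of groups within a gene does not. On it Mcm6 was the highest of the ring, with a level of 165 ± 8.23 CPM per kb (SD, n = 3) in control and 226 ± 9.34 CPM per kb in CDKO pools. Mcm3 came next, at 146 ± 3.18 and 178 ± 2.50 CPM per kb. Every library of these 2 subunits lay above every library of the other ring genes within each group. Next was Mcm5, at 100.1 ± 6.28 and 129 ± 3.23 CPM per kb. The order went on with Mcm2, at 84.3 ± 2.99 and 105 ± 4.11 CPM per kb, and Mcm4, at 79.8 ± 2.78 and 85.9 ± 2.23 CPM per kb. Mcm7 had a level of 74.9 ± 3.47 in control and 90.4 ± 1.17 CPM per kb in CDKO pools, so it was the lowest of the ring in control and Mcm4 the lowest in CDKO pools. In control the libraries of Mcm2 and Mcm4 overlapped, and so did those of Mcm4 and Mcm7. The loaders, the inhibitor and Mcm10 were lower than every ring gene. Cdt1 had 41.0 ± 1.12 and 55.9 ± 3.26 CPM per kb and Gmnn 39.7 ± 5.81 and 28.2 ± 0.683 CPM per kb, overlapping in control and apart in CDKO pools. Cdc6 had 18.7 ± 0.628 and 15.2 ± 1.51 CPM per kb, and Mcm10 10.5 ± 0.666 and 9.73 ± 0.404 CPM per kb.

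As a share of the ring's per-kilobase total, Mcm6 made up 25.3%, 25.0% and 25.9% in control and 28.4%, 27.2% and 27.7% in CDKO libraries. Mcm4 made up 12.4%, 12.6% and 11.8% in control and 10.2%, 10.6% and 10.8% in CDKO libraries. The groups did not overlap for these 2 subunits and overlapped for the other 4. A share within a library does not depend on how libraries are scaled to each other. The shares are a description, with no test.

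**Figure D3:**
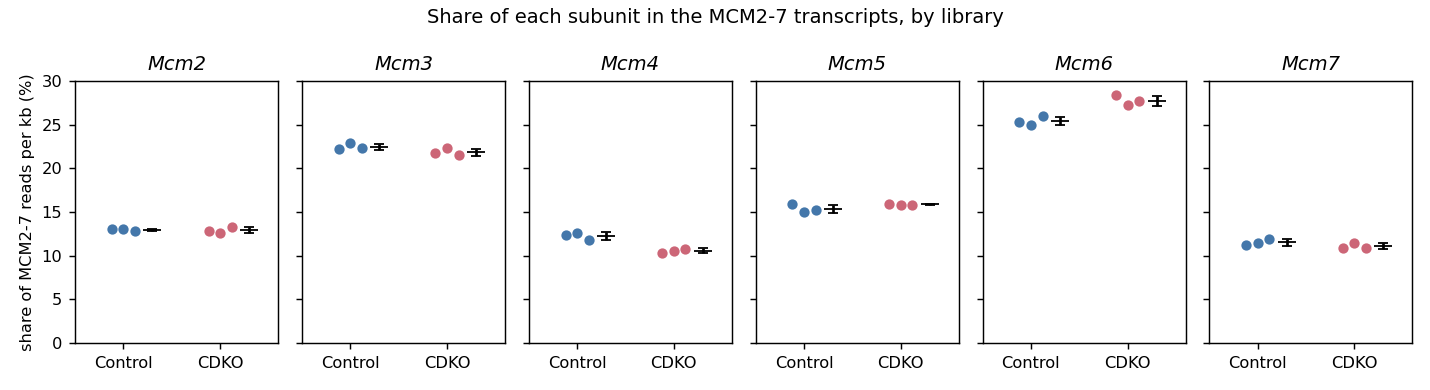
Share of each subunit in the summed per-kilobase level of Mcm2 to Mcm7 (vertical axis, percent), by library (points) with group mean and SD (bars). The Mcm6 share is higher and the Mcm4 share lower in all 3 CDKO libraries.

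Promoter sequence was read for the members because the ring genes rose together in the same pools, as did Cdt1, while Cdc6 fell. RefSeq windows of the build GRCm38.p6, from 250 bases before to 50 bases after an annotated start, were found for 8 of the 10 members, the exceptions being Mcm4 and Gmnn. They were searched on both strands for the E2F-type motifs TTTGGCGC, TTTCGCGC, TTTCCCGC and TTTGCCGC, which can overlap one another in opposite directions. Of the 8 genes 6 held at least 1 match, and of the 5 ring genes 4 did, against 2.61% of 27025 genes with a window. Those 27025 were not limited to genes expressed in these libraries, as the members were, so the sets are unlike. The members are textbook E2F targets, so a high share was likely before the search. Whether it bears on the rise was not tested. For 55 genes of the related lists described below the share was 32.7%. CCAAT, a common promoter element, was found in 6 of the 8 members and in 41.1% of all genes with a window. The stretches below show in capitals every match found in the members' windows, written 5′ to 3′ on the gene's strand.
Mcm6, chr1:128359774-128359845: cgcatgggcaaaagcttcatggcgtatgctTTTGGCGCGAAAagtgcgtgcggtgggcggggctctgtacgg
Mcm6, chr1:128359715-128359782: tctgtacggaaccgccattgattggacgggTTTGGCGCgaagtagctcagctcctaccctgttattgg
Mcm5, chr8:75109326-75109397: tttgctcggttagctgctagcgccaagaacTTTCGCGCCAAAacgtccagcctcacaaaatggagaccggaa
Mcm7, chr5:138172011-138172078: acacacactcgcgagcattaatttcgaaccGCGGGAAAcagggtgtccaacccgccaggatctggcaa
Mcm7, chr5:138171849-138171878: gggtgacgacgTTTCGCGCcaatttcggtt
Mcm3, chr1:20820275-20820304: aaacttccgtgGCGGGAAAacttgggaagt
Mcm3, chr1:20820263-20820285: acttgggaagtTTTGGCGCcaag
Cdt1, chr8:122568036-122568064: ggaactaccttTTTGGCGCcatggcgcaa
Cdc6, chr11:98907983-98908050: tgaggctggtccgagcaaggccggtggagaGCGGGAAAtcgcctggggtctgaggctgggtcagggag

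In Mcm6 and Mcm5 the motifs TTTGGCGC and TTTCGCGC overlapped on opposite strands and formed a run of 12 bases, ending 99 and 142 bases before the start. A match was found for Cdc6, which fell, as well as for Mcm6, which rose. Cdc6 was the only member called lower that had a window, and whether a match goes with direction was not tested. Mcm2 and Mcm10 held none of these letters in the window. A match describes the sequence and was not tested as a site.

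Mcm10 (chromosome 2, 4989714 to 5012791, minus strand), which acts when the loaded ring is turned into a moving helicase, did not pass the test. Its level was 52.5, 48.7 and 55.3 CPM in control and 48.3, 46.1 and 50.1 CPM in CDKO pools, with overlapping groups. The log2 difference was -0.11 with a 95% interval of -0.26 to 0.05 (limma adjusted p = 0.190), so a rise of the size of Mcm6 lies outside the interval. It did not pass under any of its 17 alternatives (adjusted p 0.0988 to 0.474).

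Cdt1 (chromosome 8, 122568015 to 122573554, plus strand), the factor that delivers the ring to the origin, rose. Its level was 90.9, 91.4 and 86.9 CPM in control and 121, 116 and 130.01 CPM in CDKO pools. All CDKO pools were above all control pools. The difference of 0.44 on the log2 scale (SE 0.06, limma adjusted p = 3.45e-05) was a 1.36-fold rise, beside 1.37-fold for Mcm6.

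Cdc6 (chromosome 11, 98907801 to 98923940, plus strand), the ATPase that joins ORC and recruits the ring with Cdt1, fell. Its level was 91.5, 85.97 and 90.7 CPM in control and 74.2, 64.6 and 78.7 CPM in CDKO pools. The control pools lay close together, the CDKO pools were more spread, and the groups did not overlap. The log2 difference was -0.30 (SE 0.07, limma adjusted p = 0.00304).

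Gmnn (chromosome 13, 24751845 to 24761923, minus strand), the gene of geminin, also fell. Its level was 46.0, 41.03 and 54.7 CPM in control and 34.05, 33.8 and 32.5 CPM in CDKO pools. Here the control pools were the spread ones and the CDKO pools close together, and the groups did not overlap. The log2 difference was -0.48 (SE 0.10, 95% interval -0.69 to -0.26, limma adjusted p = 0.00117), and 21.2% of all genes tested had a larger negative difference. Gmnn kept its direction and its call under all 17 alternatives, with an adjusted p (limma, edgeR or DESeq2) of 7.12e-05 to 0.00653.

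Ratios within a library set the loaders against the ring and against the inhibitor without reference to the scaling of libraries. The summed level of the 6 ring genes was 2368, 2205 and 2340 CPM in control and 2969, 2835 and 2916 CPM in CDKO pools, a 1.26-fold rise. The log2 ratio of Cdc6 to the mean of the ring was -2.10, -2.08 and -2.09 in control and -2.72, -2.85 and -2.61 in CDKO pools. The control libraries were nearly equal, and every CDKO library was lower. The log2 ratio of Cdt1 to Gmnn was 0.97, 1.14 and 0.66 in control and 1.80, 1.75 and 1.97 in CDKO pools, with every CDKO library higher. The mean differences were -0.64 for the first ratio and 0.92 for the second. For the sum and for both ratios the exact two-sided permutation p was 0.1, the smallest that 3 against 3 libraries allow. Protein amounts were not measured, so these values say nothing of the balance of Cdt1 and geminin in the cell.

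**Figure D4:**
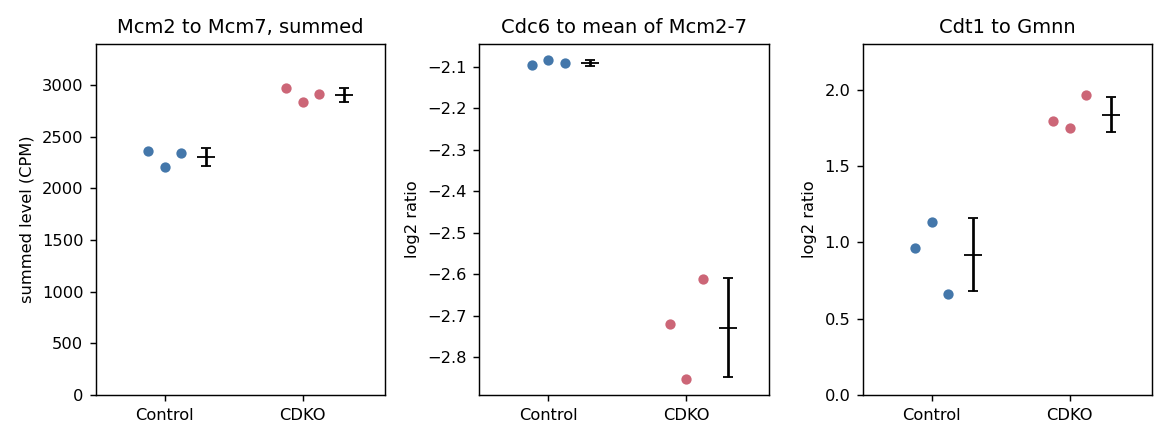
Summed level of Mcm2 to Mcm7 in CPM (left), log2 ratio of Cdc6 to the mean of Mcm2 to Mcm7 (middle, axis not from 0) and log2 ratio of Cdt1 to Gmnn (right), by library (points) with group mean and SD (bars). The groups do not overlap in any of the 3 panels.

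Libraries of a group differed from each other in a shared way. Control replicate 2 was the lowest control library for 8 of the 10 members, and CDKO replicate 2 was the lowest CDKO library for 7 of the 10. The exceptions in control were Cdt1 and Mcm4, which were lowest in replicate 3. Leaving out either library kept the calls of all members except Mcm4.

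Counts over the related lists stand beside the shares of all genes tested, 31.1% higher and 35.2% lower. The 6 ORC subunits, to which Cdc6 binds, were mostly not called. Of the 6 tested, 1 was higher and none lower, and 5 did not pass, with a median difference of 0.06. Orc3 stood at 145 ± 7.12 CPM in control and rose to 160 ± 4.10 CPM (limma adjusted p = 0.0230), a call lost without control replicate 1 (0.0861), control replicate 3 (0.0730) or CDKO replicate 3 (0.0726), within a range of 0.00542 to 0.0861 over its alternatives. Orc1, the subunit whose level is known to vary most over the cell cycle, was not called, with control pools at 10.4 ± 1.09 CPM and CDKO pools at 10.8 ± 0.959 CPM (limma adjusted p = 0.738).

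Of 4 relatives and binding partners of the MCM genes outside the ring, 2 were higher, 1 was lower and 1 did not pass, with a median difference of 0.34. Mcm8, which with Mcm9 forms a helicase of recombination repair, stood at 25.9, 19.8 and 20.8 CPM in control and 43.7, 44.1 and 42.3 CPM in CDKO pools. It rose by 0.95 on the log2 scale (SE 0.10, limma adjusted p = 1.08e-05). Mcm9, at 30.2 ± 2.22 and 35.2 ± 3.12 CPM, missed the threshold (limma adjusted p = 0.0613), though it passed in 5 of its alternatives. Mcmbp, which binds free MCM subunits and is known for helping to assemble new complexes, rose from 109 ± 4.25 to 152 ± 1.67 CPM (limma adjusted p = 6.71e-06). Mcmdc2, a meiosis gene, fell from a low level of 2.06 ± 0.699 to 0.653 ± 0.0460 CPM (limma adjusted p = 0.00126).

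Of 16 genes tested that activate the loaded ring and fire origins, 4 were higher, 3 lower and 9 did not pass, with a median difference of 0.03. Both shares are below those of all genes tested (31.1% higher and 35.2% lower). Cdc45, which joins the ring to form the active helicase, rose from 35.0 ± 0.428 to 51.3 ± 2.20 CPM (limma adjusted p = 3.79e-05). Gins1 rose from 9.09 ± 0.996 to 15.6 ± 0.155 CPM (limma adjusted p = 0.000290), while its partners in the GINS complex, Gins2, Gins3 and Gins4, did not pass. Topbp1, which helps bring Cdc45 and GINS to the ring, rose from 209 ± 4.73 to 248 ± 12.2 CPM. Among those lower were Donson, which fell from 35.5 ± 0.332 to 27.2 ± 0.688 CPM, and Wdhd1, which links the helicase to the priming polymerase and fell from 88.4 ± 6.31 to 71.1 ± 5.20 CPM. Cdc7, the kinase that phosphorylates the ring at firing, was the third, at 60.6 ± 5.64 and 51.0 ± 7.84 CPM (limma adjusted p = 0.0497). That call was lost in 11 of its 17 alternatives, over a range of 0.00350 to 0.197. It failed when control replicate 1 (0.0958) or 3 (0.197) or CDKO replicate 1 (0.181) or 2 (0.152) was left out, with edgeR (0.0800) and with DESeq2 (0.0627). It also failed with no filter (0.112), TMM scaling (0.0561), quantile normalization (0.0815) and a pseudocount of 0.5 (0.0525) or 5 (0.0509).

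Genes whose products control the amount of Cdt1, Cdc6 and geminin protein included 8 that were tested. Of these, 3 were higher and 3 lower, shares near those of all genes, with a median difference of 0.03. Gmnc and Mcidas, relatives of geminin, had no read in any library. Dtl, the receptor through which the CUL4 ubiquitin ligase destroys Cdt1 in S phase, stood at 114, 98.3 and 114 CPM in control and 189, 167 and 175 CPM in CDKO pools. It rose by 0.70 on the log2 scale (SE 0.07, limma adjusted p = 5.01e-06), beside 0.44 for Cdt1. Cul4a, a scaffold of that ligase, fell from 166 ± 2.34 to 139 ± 3.75 CPM, and Skp2, part of another ligase that acts on Cdt1, fell from 47.8 ± 3.11 to 36.9 ± 1.03 CPM. The anaphase-promoting complex, which destroys geminin, has a pair of activators. Cdc20, active in mitosis, rose from 68.3 ± 10.3 to 120 ± 7.40 CPM (limma adjusted p = 1.52e-05), and Fzr1, active in G1 phase, fell from 197 ± 2.74 to 162 ± 1.93 CPM (limma adjusted p = 9.71e-05). Ddb1, the adaptor of the CUL4 ligase, was the third that was higher (544 ± 11.4 and 581 ± 14.6 CPM, limma adjusted p = 0.0484). Its adjusted p ran from 0.00295 to 0.251, and the call was lost with no filter (0.0646), with quantile normalization (0.251), and without each of control replicates 1, 2 and 3 (0.0555, 0.0914 and 0.155) and CDKO replicates 1 and 3 (0.0840 and 0.133).

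At the fork behind the helicase, of 23 genes tested 14 were higher, 3 lower and 6 did not pass, beside 31.1% higher and 35.2% lower among all genes. The median difference was 0.21, beside -0.02 over all genes. Pold3, a subunit of the lagging strand polymerase, rose from 102 ± 2.53 to 152 ± 10.2 CPM (limma adjusted p = 5.86e-06), and Pold1, its catalytic subunit, from 210.1 ± 4.29 to 267 ± 9.81 CPM. Rfc5, of the complex that loads the sliding clamp, rose from 117 ± 5.96 to 159 ± 7.20 CPM, and Pola1, of the priming polymerase, had the smallest p of the list (limma adjusted p = 2.09e-06). Pold4, the small subunit of the same polymerase as Pold3, fell from 38.0 ± 1.97 to 27.1 ± 1.31 CPM (limma adjusted p = 0.000360). Pole, the leading strand polymerase, fell from 152 ± 8.61 to 133 ± 6.48 CPM (limma adjusted p = 0.00903), a call lost after a correction for GC content and length (0.364, range 0.00355 to 0.364). Rfc1 was lower at 249 and 233 CPM (limma adjusted p = 0.0453). That call was lost in 9 of its 17 alternatives, over a range of 0.0163 to 0.167. It failed when control replicate 1 (0.103) or 3 (0.135) or CDKO replicate 2 (0.116) or 3 (0.0790) was left out, with edgeR (0.0827) and with DESeq2 (0.0590). It also failed with TMM scaling (0.0820), a mean of at least 10 CPM as the filter (0.0545) and the GC and length correction (0.167).

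Among the E2F factors themselves 3 of 8 were higher, 1 was lower and 4 did not pass, with a median difference of 0.16. E2f2, an activator of replication genes, stood at 13.8, 14.4 and 12.8 CPM in control and 29.3, 22.7 and 27.9 CPM in CDKO pools. It rose by 0.91 on the log2 scale (limma adjusted p = 4.17e-05). E2f3, another activator, rose from 53.1 ± 3.83 to 64.7 ± 4.72 CPM, and E2f4, a repressor in resting cells, from 131 ± 1.12 to 164 ± 13.1 CPM. E2f5, also a repressor in resting cells, fell from 19.6 ± 0.164 to 8.10 ± 1.85 CPM (limma adjusted p = 2.90e-05). E2f1 was 88.4 ± 6.61 and 85.9 ± 6.996 CPM and did not pass (limma adjusted p = 0.636).

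**Figure D5:**
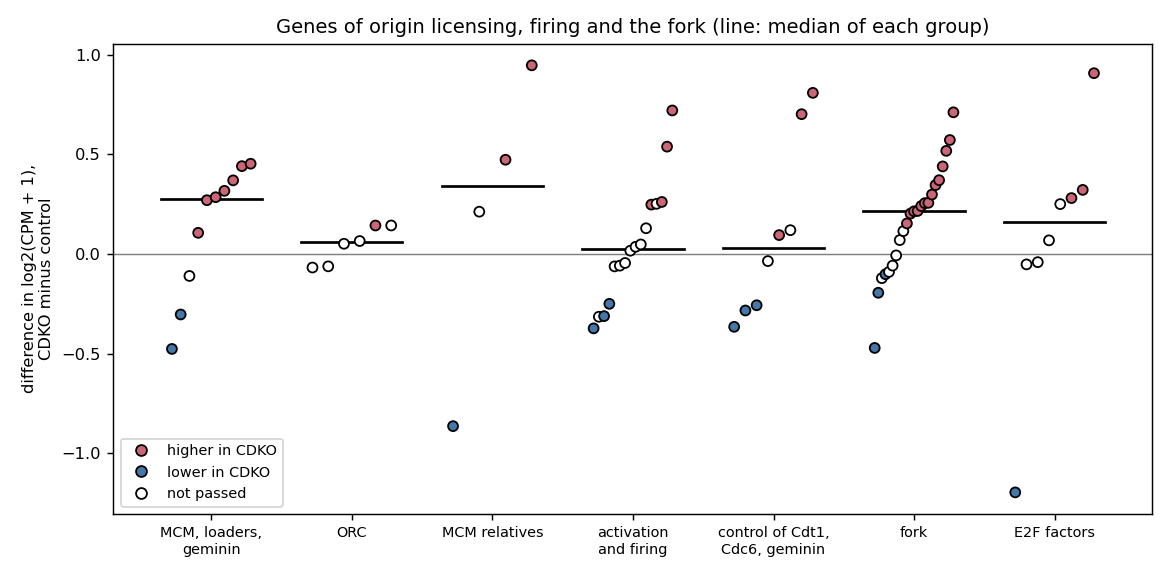
Difference in log2(CPM + 1), CDKO minus control (vertical axis), for the 10 members and for the 65 tested genes of 6 related lists (columns); each point is a gene, filled where it passed the limma threshold, and each line is a median. The ORC, firing and control columns centre near 0, with medians of 0.06, 0.03 and 0.03, and the members at 0.28.

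Over these 6 lists together 27 of 65 tested genes were higher, 11 were lower and 27 did not pass, with a median difference of 0.12. Among all genes tested 31.1% were higher and 35.2% lower, with a median of -0.02. Whether any list stands apart from the others or from all genes was not tested.

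The genes whose levels followed the ring most closely over the 6 libraries were sought among 9876 genes with a mean of at least 10 CPM. They were Thoc3, Chtf18, Ywhab, Emc4 and Ptger3, with a Pearson correlation to the mean log2 level of the ring from 0.998 to 0.999. Chtf18, part of an alternative loader of the sliding clamp, stood at 58.0, 52.4 and 55.4 CPM in control and 80.2, 75.4 and 78.3 CPM in CDKO pools. The libraries fall into the 2 groups, and 2017 of the genes examined had a correlation above 0.9, so a high value here says little beyond a difference between the groups.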

How the data were processed

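RNA of 6 libraries (3 control, 3 CDKO) was amplified with a SMARTer Ultra Low Input kit and made into Nextera XT libraries, per the labels' protocols. TopHat2, HTSeq and DESeq2 with build mm10 were named, without versions, per the submitters' processing notes. The gene annotation and the sort markers are not given in the sources used here. The deposited CPM values summed to 1000000 in each library, and 100% of the values above 0 were whole multiples of a step, to within 0.01 of a read, which gave back whole reads. The deposited log2 fold change is control over CDKO, and its sign was turned. The deposited adjusted p-value is from the authors' DESeq2 test.

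Genes averaging 10 or more recovered reads per library (0.255 CPM at the mean depth) entered a limma 3.58.1 fit (R 4.3.3) of log2(CPM + 1) on genotype alone, moderated by eBayes with the trend option. That left 13734 genes. A count of 0 allows at most 0.0701 to 0.0913 CPM by library (3 counts, counting error only). Left out were 12 genes whose symbols had been turned into dates. Nothing says that the pools of a group were prepared separately beyond being different mice, so p-values measure the spread between these pools.

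The alternatives tried were a replicate block; removal of 1 library at a time; no filter or one of 50 reads; scaling by TMM or quantiles; pseudocounts 0.5 and 5; and, on the recovered reads, edgeR 4.0.16 and DESeq2 1.42.0. A filter of 10 CPM and a loess correction for GC and length, known for 95.2% of tested genes, were added after seeing the data. The fits were also run on simulated data in which far fewer genes differed than were called here. That run therefore does not show how the fits behave with so many differences. Exon lengths and gene coordinates are from GENCODE M21 on mm10, and promoter windows from RefSeq on GRCm38.p6.

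The members and lists were chosen with earlier results of these data known. The genes named are the 10 members and, per related list, up to 4 with the smallest p plus those called in the minority direction. Named after their values were seen were Mcm9, Orc1, Orc5, Gins2, Gins3, Gins4, E2f1, Ddb1, Skp2, Prkdc, Ap4m1, Cops6 and the miRNA genes. The single cell type markers were also named after their values were seen, among them Ly6a, Fgd5, Prss34 and Gata2.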

Additional observations from a re-analysis of the deposited data

How the results depend on the processing

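Of the 10 members 9 kept their direction and their side of the threshold under all 17 alternatives, and Mcm4 was not called in 8 of them. With no filter its limma adjusted p was 0.0533, with quantile normalization 0.0507, and after the GC and length correction 0.0602. The count of members called higher was 6 to 7 and the count called lower was 2 under every alternative, also when 1 library was left out. Leaving out 1 library, the difference in the summed level of the ring ran from 553 to 639 CPM, that in the Cdc6 to ring ratio from -0.70 to -0.58, and that in the Cdt1 to Gmnn ratio from 0.79 to 1.02. With the replicate number as a block, 7 members were higher and 2 lower, the same counts as without it, and 4348 and 4894 of all genes. The labels do not say that numbers pair libraries. The correlation of deviations between libraries of the same number was 0.0518, 0.0483 and -0.0120. Control replicates 1 and 2 correlated best with the CDKO library of the same number, and control replicate 3 with CDKO number 2. Across scalings the median difference of all genes ran from -0.02 to 0.02, and no direction given for a member turned on the choice among them. Each of these scalings sets a gene against the other genes of its library. A change in total RNA per cell would not show in any of them. The related lists held 24 to 31 genes called higher and 9 to 12 called lower. Depth gave a relative counting error of at most 2.99% for a member, with each read taken as independent, and precision was limited by the 3 pools per group.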
